A study of Mus musculus with 12 samples.

Results

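The matrix proteases of the MMP and ADAMTS families and their TIMP inhibitors were followed across basal and luminal epithelial cells of the mouse mammary gland. Members were every gene symbol of the deposited count table made of Mmp, Adamts or Timp and a family number (Timp1 to Timp4 for the inhibitors, with the letter a or b allowed after an Mmp number). This gave 46 of 53735 symbols: 23 Mmp, 19 Adamts and 4 Timp genes. RNA sequencing was done on live cells of enzymatically disaggregated glands, sorted on the surface markers CD24 and CD49f, in 12 libraries that form 4 groups of 3. Basal and luminal cells of WT mice make up a pair of groups, and those of MMTVRANK mice the other pair. MMTVRANK mice carry the receptor Rank under the MMTV promoter (mouse mammary tumour virus), which is active in mammary epithelium, and WT mice do not carry it. Neither strain nor age is given in the labels, and the labels do not say whether the replicates of a group are separate animals, so p-values measure the spread between these libraries.

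Matrix metalloproteinases (MMPs) are zinc-dependent enzymes that cleave collagens, laminins and other proteins outside the cell. Most are secreted as inactive precursors, and a smaller set is anchored in the cell membrane. ADAMTS enzymes are secreted relatives with thrombospondin repeats, which cleave proteoglycans such as versican and aggrecan or trim procollagens. TIMPs are small secreted proteins that block the active site of MMPs, and Timp3, which binds to the matrix, also blocks several ADAMTS enzymes. In the mammary gland, basal (myoepithelial) cells lie on the basement membrane and luminal cells line the duct, and matrix proteases are known for their part in duct branching and in the regression of the gland after lactation.

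Library totals lay between 12459500 and 15069600 counts, and no pair of libraries was a duplicate. All 10 luminal and all 10 basal marker genes passed the test between populations in both genotypes, each in the direction of its name. For the WT replicate 2 libraries the title and the cell subtype field name opposite populations. Titles were used, and the summed luminal markers of these libraries (17588 CPM, library-size scaled counts, in the library titled luminal and 630.4 CPM in the one titled basal) lay with the titles. Tnfrsf11a, the gene of Rank, stood at 319, 156 and 238 CPM in MMTVRANK luminal replicates 1, 2 and 3 and at 6.36, 90.8 and 9.91 CPM in WT luminal libraries. In basal libraries it stood at 415, 129 and 218 CPM (MMTVRANK) and 73.7, 158 and 65.3 CPM (WT). The libraries labelled WT replicate 2 are thus high in Tnfrsf11a, the basal one above MMTVRANK basal replicate 2, which goes against their genotype label. Without both of them 18 members passed between populations in WT (2 higher, 16 lower in luminal cells), where 28% of 19030 genes passed, and 18 in MMTVRANK (3 higher, 15 lower), where 30.7% passed. Between genotypes 0 members passed without them, against 0.426% of all genes in luminal and 0.021% in basal cells. Of the libraries, WT basal replicate 1 stood apart in fibroblast markers, MMTVRANK luminal replicate 3 in macrophage and basal markers, and MMTVRANK basal replicate 3 in macrophage markers, with the values given beside the results they touch.

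To show the regions from which the members that moved together are transcribed, the 250 bases before the gene start were read from RefSeq (GRCm38.p6) for the 32 members it lists here, in 35 windows. Capitals mark any of 4 motifs. The AP-1 motif was searched as TGANTCA on both strands. The GC box was searched as GGGCGG on both strands. The TEAD motif was searched as GGAATG on both strands. The TATA box was searched as TATAAA on the strand of the gene. Motifs of different kinds did not overlap. Adamts1, Adamts18 and Adamts9 are shown as examples of genes higher in basal cells, Mmp15 and Adamts3 as the genes higher in luminal cells of both genotypes, and Mmp3, Mmp10 and Mmp13 as members of the Mmp cluster of chromosome 9 with too few counts to be tested.
Adamts1 (chr16:85803114-85803363, minus strand): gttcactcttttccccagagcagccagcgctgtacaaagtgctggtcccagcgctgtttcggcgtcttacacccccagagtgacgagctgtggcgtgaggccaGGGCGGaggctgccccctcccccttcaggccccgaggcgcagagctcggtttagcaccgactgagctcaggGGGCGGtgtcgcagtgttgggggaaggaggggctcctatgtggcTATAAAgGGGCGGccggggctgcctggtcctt
Adamts18 (chr8:113848840-113849089, minus strand): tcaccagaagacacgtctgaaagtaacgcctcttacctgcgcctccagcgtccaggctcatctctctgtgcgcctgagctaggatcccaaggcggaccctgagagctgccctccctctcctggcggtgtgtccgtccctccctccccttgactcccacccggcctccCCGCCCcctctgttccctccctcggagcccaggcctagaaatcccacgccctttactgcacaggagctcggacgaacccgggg
Adamts9 (chr6:92943535-92943784, minus strand): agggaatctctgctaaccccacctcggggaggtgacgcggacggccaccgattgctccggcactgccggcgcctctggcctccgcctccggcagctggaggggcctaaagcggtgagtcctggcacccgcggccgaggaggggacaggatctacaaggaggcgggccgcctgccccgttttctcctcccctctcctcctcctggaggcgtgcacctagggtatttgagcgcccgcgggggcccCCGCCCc
Mmp15 (chr8:95352046-95352295, plus strand): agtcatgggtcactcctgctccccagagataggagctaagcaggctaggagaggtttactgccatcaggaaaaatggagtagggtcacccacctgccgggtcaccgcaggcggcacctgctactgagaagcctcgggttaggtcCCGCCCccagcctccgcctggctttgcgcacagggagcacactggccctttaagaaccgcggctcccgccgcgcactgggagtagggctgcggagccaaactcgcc
Adamts3 (chr5:89883335-89883584, minus strand): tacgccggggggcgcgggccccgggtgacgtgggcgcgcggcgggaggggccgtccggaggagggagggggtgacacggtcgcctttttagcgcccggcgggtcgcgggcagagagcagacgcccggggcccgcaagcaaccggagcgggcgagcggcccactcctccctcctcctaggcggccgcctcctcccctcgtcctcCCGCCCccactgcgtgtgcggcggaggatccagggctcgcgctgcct
Mmp3 (chr9:7445572-7445821, plus strand): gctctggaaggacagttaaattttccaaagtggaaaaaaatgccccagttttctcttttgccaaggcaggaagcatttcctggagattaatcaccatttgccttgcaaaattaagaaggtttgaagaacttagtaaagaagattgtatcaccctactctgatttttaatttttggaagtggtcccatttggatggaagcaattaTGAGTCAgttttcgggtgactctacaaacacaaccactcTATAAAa
Mmp10 (chr9:7502092-7502341, plus strand): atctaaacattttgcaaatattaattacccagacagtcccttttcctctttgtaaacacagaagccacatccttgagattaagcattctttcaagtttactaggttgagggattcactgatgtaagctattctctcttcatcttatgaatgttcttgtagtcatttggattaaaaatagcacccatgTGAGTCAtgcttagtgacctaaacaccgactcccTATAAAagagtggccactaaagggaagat
Mmp13 (chr9:7272264-7272513, plus strand): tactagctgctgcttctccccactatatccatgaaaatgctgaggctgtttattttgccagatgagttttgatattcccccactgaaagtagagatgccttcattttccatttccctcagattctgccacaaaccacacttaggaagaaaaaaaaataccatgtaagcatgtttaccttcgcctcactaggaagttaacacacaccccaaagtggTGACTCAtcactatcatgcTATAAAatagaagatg
In these windows each AP-1 match of the 3 cluster genes is followed by a TATA box, while the other 5 each hold a GC box. The first base of the AP-1 match lies 46 bases before the gene start in Mmp3, 63 in Mmp10 and 35 in Mmp13. Adamts1 is the only window of a basal-high gene with a TATA box, whose first base lies 32 bases before the start.

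Across all windows, the AP-1 letters were in 8 of the 12 windows of the chromosome 9 cluster (66.7%) and in 0 of the 23 windows of other members, against 6.75% of 32851 windows of all genes. The TATA box was in 7 of the 12 cluster windows (58.3%) and in 2 of the 23 others, against 7.59% of all windows. The GC box showed the opposite split, with 0 of 12 cluster windows and 16 of 23 others (69.6%), against 32.7% of all windows. Of the 14 windows of genes higher in WT basal cells 9 held a GC box (64.3%), and so did both windows of genes higher in WT luminal cells. The share was alike in tested members that did not pass in WT, with 4 of 6 windows (66.7%). The TEAD letters were in 2 of the 35 member windows (5.71%), against 12.6% of all. The median number of CG pairs per window was 16.5 in the basal-high genes and 24.5 in the luminal-high genes. It was 8 in tested members that did not pass in WT, 1 in the untested genes and 6 over all windows. Mmp7, Mmp12 and Mmp23 had more than 1 window, and those of Mmp23 overlap. Windows follow RefSeq starts, which can differ from the deposited gene positions. The windows of Adamts20, Mmp11 and Timp2 lie wholly inside the deposited gene, as does a window each of Mmp7 and Mmp12. Those of Mmp15, Timp3, Adamts14, Adamts2, Mmp28 and Mmp1b and the other Mmp12 window reach into it. The motif and CG counts thus take in some sequence from inside genes. A match describes letters in a window and not a bound site.

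Of the 46 members, 31 had enough counts to be tested (12 Mmp, 15 Adamts and 4 Timp), and 15 did not. In WT, luminal cells differed from basal cells in 22 of the 31, with 20 lower and 2 higher in luminal cells (edgeR quasi-likelihood test, Benjamini-Hochberg adjusted p under 0.05 over 18236 genes). Over all genes tested, 38.1% passed in this comparison, 20% lower and 18% higher. The median log2 fold change, luminal minus basal, was −2.58 over the tested members and −0.07 over all genes. For 21 members every WT basal library lay above every WT luminal library and for 2 the reverse, against 23.8% and 22.3% of all genes (46.1% in all). In MMTVRANK cells 19 of the 31 passed, 15 lower and 4 higher in luminal cells, where 33.2% of all genes passed (17% lower, 16.1% higher), and the medians were −1.86 and 0.05. All libraries of 1 population lay above those of the other for 18 members (15 basal, 3 luminal), against 54.5% of all genes (26.8% and 27.7%). With the replicate number as a block 22 and 18 members passed in WT and MMTVRANK, against 40.2% and 35.6% of all genes. In bulk libraries fewer cells of a type and less RNA per cell cannot be told apart.

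**Figure D1:**
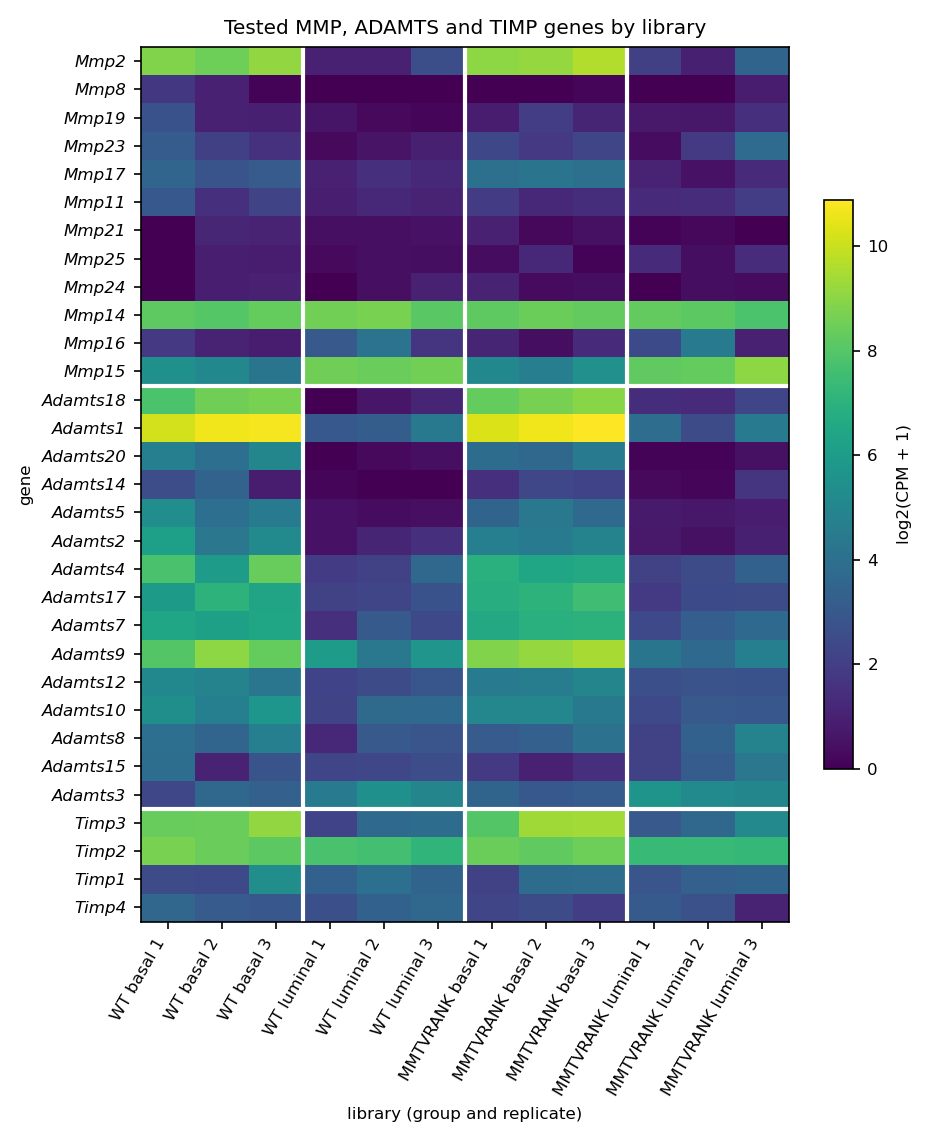
Levels of the 31 tested members as log2(CPM + 1) in the 12 libraries (columns), grouped by family (rows, white lines). Adamts1, Mmp2 and Timp3 are bright in the 6 basal and dark in the 6 luminal libraries, Mmp15 is brighter in the 6 luminal libraries, and Mmp14 and Timp2 are bright throughout.

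Fibroblasts also make many of these enzymes, and the summed level of 12 fibroblast markers moved with the populations. The sum was 3419, 1022 and 660.3 CPM in WT basal replicates 1, 2 and 3 and 139, 40.4 and 141 CPM in WT luminal libraries. In MMTVRANK libraries it was 1134, 1030.0 and 1155 CPM (basal) and 115, 79.9 and 243 CPM (luminal). Between 10 and 12 of the 12 markers had a count in each library, with Fap at 0 in 1 WT basal library and Dpt and Mfap5 each at 0 in 1 MMTVRANK luminal library. Of the 12, 11 passed in WT and 3 in MMTVRANK, all lower in luminal cells. The 10 basal and myoepithelial markers summed to 22955 to 30035 CPM in basal and 36.9 to 391 CPM in luminal libraries. Endothelial, pericyte and adipocyte markers were also mostly lower in WT luminal cells, 8 of 10, 7 of 8 and 3 of 4 tested, and in MMTVRANK 8, 3 and 2 were. Their sums in basal libraries ranged from 117 to 412, from 89.1 to 261 and from 62.8 to 237 CPM, and in luminal libraries from 146 to 268, from 190.3 to 270.0 and from 6.95 to 45.6 CPM. The part of these cells' RNA in the members' differences was not tested. Without WT basal replicate 1, the library with the highest fibroblast sum, 18 members still passed in WT, 2 higher and 16 lower in luminal cells, against 33.8% of the 19330 genes tested without it.

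Among the 7 ADAMTS enzymes that cleave proteoglycans, 5 were lower in luminal cells in both genotypes. Adamts1, a versican and aggrecan cleaving enzyme (chromosome 16 from 85793827 to 85803113, minus strand), stood at 1138, 1604 and 1694 CPM in WT basal and 7.03, 8.3 and 20.4 CPM in WT luminal replicates 1, 2 and 3. The MMTVRANK libraries held 1262, 1636 and 1899 CPM (basal) and 13.7, 4.67 and 20.5 CPM (luminal). The lowest basal library was well above the highest luminal one, and the log2 fold change was −6.95 (SE 0.62, adjusted p = 1.14e-05) in WT and −6.95 (SE 0.62, adjusted p = 1.07e-05) in MMTVRANK, with n = 3 per group here and below. Its neighbour Adamts5 (gap 55.1 kb), the main aggrecan cleaving enzyme of cartilage, had a WT basal level of 3.14 ± 1.52 CPM per kilobase of exon (SD, n = 3), against 279 ± 56.3 for Adamts1. Its libraries stood at 39, 14.9 and 22.3 CPM in WT basal and 0.449, 0.284 and 0.381 CPM in WT luminal libraries. The MMTVRANK values were 10.5, 19.3 and 12.2 CPM (basal) and 0.749, 0.639 and 0.762 CPM (luminal). No library of either population overlapped with the other, and the log2 fold changes were −6.06 (SE 0.48, adjusted p = 2.25e-06) and −4.27 (SE 0.43, adjusted p = 1.33e-05). Adamts4, the other aggrecanase, varied among the WT basal libraries, at 218, 62.3 and 328 CPM, against 2.84, 3.26 and 11.9 CPM in WT luminal ones. MMTVRANK cells had 119, 86.8 and 93.8 CPM in basal and 3.34, 4.86 and 9.43 CPM in luminal libraries, again without overlap. Its log2 fold changes were −5.06 (SE 0.74, adjusted p = 3.52e-04) in WT and −4.08 (SE 0.71, adjusted p = 0.00123) in MMTVRANK.

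Adamts9, which cleaves versican, kept a visible level in luminal cells. It stood at 249, 530.4 and 319.8 CPM in WT basal and 63.2, 19.8 and 49.7 CPM in WT luminal libraries. MMTVRANK libraries held 455, 577 and 712 CPM (basal) and 17.6, 12.1 and 25.2 CPM (luminal). Its basal and luminal libraries did not overlap, and the log2 fold change was −3.05 (SE 0.45, adjusted p = 3.18e-04) in WT and −4.99 (SE 0.49, adjusted p = 1.95e-05) in MMTVRANK. Of its exon length 9.18% is shared with a clone-named gene on the opposite strand, and the counting did not use the strand of reads. Adamts20, a close relative of Adamts9 known from the belted coat mutant, was nearly silent in luminal cells, with 0, 0.213 and 0.381 CPM in WT and 0.0681, 0.0639 and 0.41 CPM in MMTVRANK libraries. Its basal levels were 25.1, 14.6 and 31.4 CPM (WT) and 13.4, 11.7 and 20.6 CPM (MMTVRANK). These luminal values rest on 0 to 7 counts per library, and the log2 fold changes were −6.79 (SE 0.77, adjusted p = 3.12e-05) and −6.29 (SE 0.76, adjusted p = 5.11e-05).

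The remaining proteoglycan-cleaving enzymes, Adamts8 and Adamts15, lie 20.1 kb apart on chromosome 9 and were not among those 5. Adamts8 stood at 14.8, 10.6 and 25.3 CPM in WT basal and 1.42, 7.16 and 6.29 CPM in WT luminal libraries, which did not overlap. Its log2 fold change there was −1.77 (SE 0.74, adjusted p = 0.0829) and did not pass. The block by replicate number gave −1.92 (adjusted p = 0.0160) and DESeq2 −1.82 (adjusted p = 0.0255). Leaving MMTVRANK luminal replicate 1 or 3 out of the shared fit gave 0.0382 and 0.0323 for the adjusted p. In MMTVRANK its values were 7.87, 9.27 and 15.6 CPM (basal) and 3.27, 9.33 and 28.2 CPM (luminal), which overlapped, at 0.32 (SE 0.72, adjusted p = 0.773). Adamts15 stood at 14.4, 1.15 and 6.08 CPM in WT basal and 3.82, 4.04 and 4.96 CPM in WT luminal libraries, overlapping, at −0.75 (SE 0.76, adjusted p = 0.477). Without WT basal replicate 1, its highest WT library, the WT value turned to 0.26 (adjusted p = 0.827). In the MMTVRANK libraries it reached 2.57, 1.01 and 1.8 CPM in basal and 3.4, 8.06 and 18.8 CPM in luminal libraries, all luminal ones above all basal ones, and it passed as higher in luminal cells at 2.48 (SE 0.81, adjusted p = 0.0320). That call was lost without MMTVRANK basal 1, 2 or 3 or MMTVRANK luminal 2 or 3 (values 1.67 to 2.84, adjusted p 0.0501 to 0.143).

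The 3 procollagen-processing enzymes, which remove the amino-terminal extension of fibrillar collagens, split by population. Adamts2 was a basal gene, at 70.1, 19.1 and 36.4 CPM in WT basal and 0.449, 1.21 and 1.84 CPM in WT luminal libraries. In MMTVRANK it was 24.7, 22.4 and 28.5 CPM (basal) and 0.681, 0.384 and 0.937 CPM (luminal), and the log2 fold changes were −5.14 (SE 0.57, adjusted p = 2.93e-05) and −5.21 (SE 0.59, adjusted p = 3.13e-05), with no overlap. Adamts3, which also activates the lymphatic growth factor Vegfc, was the only ADAMTS gene that passed as higher in luminal cells in both genotypes. Its levels were 4.02, 11.7 and 9.24 CPM in WT basal and 21.7, 43.8 and 30.4 CPM in WT luminal libraries. In MMTVRANK they were 10.3, 7.08 and 8.07 CPM (basal) and 48.9, 35.8 and 30.9 CPM (luminal). Every luminal library lay above every basal one, and the log2 fold changes were 1.94 (SE 0.38, adjusted p = 0.00152) and 2.18 (SE 0.38, adjusted p = 7.73e-04). Adamts14 was sparse, at 5.03, 10.2 and 0.77 CPM in WT basal libraries and with 2 counts in all in the WT luminal ones. The ratio of WT basal to WT luminal counts was 120 (95% counting interval 32.9 to 1001, for counting error only), and the gene passed in WT (adjusted p = 0.00452). The WT call was lost without both WT replicate 2 libraries (−5.18, adjusted p = 0.0514). In MMTVRANK Adamts14 stood at 1.89, 3.96 and 3.6 CPM (basal) and 0.204, 0.128 and 2.23 CPM (luminal), at −1.86 (SE 1.12, adjusted p = 0.234). Its luminal replicate 3 is the library with the high macrophage and basal markers, and without it the value was −4.18 (adjusted p = 0.0252).

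Both enzymes named for cleaving cartilage oligomeric matrix protein (COMP) were lower in luminal cells. Adamts7 stood at 82.9, 73.1 and 85.6 CPM in WT basal and 1.87, 7.38 and 4.32 CPM in WT luminal libraries. The MMTVRANK values were 93.3, 121 and 127 CPM (basal) and 4.29, 8.57 and 12.3 CPM (luminal), with log2 fold changes of −4.15 (SE 0.46, adjusted p = 4.00e-05) in WT and −3.75 (SE 0.45, adjusted p = 6.77e-05) in MMTVRANK. Adamts12 had log2 fold changes nearer to 0, with levels of 32.8, 28.2 and 18.2 and 3.59, 4.61 and 6.48 CPM in WT basal and luminal libraries. The MMTVRANK libraries held 22.4, 22.7 and 30.3 CPM (basal) and 5.24, 5.88 and 5.8 CPM (luminal), and the log2 fold changes were −2.43 (SE 0.30, adjusted p = 5.31e-05) and −2.15 (SE 0.29, adjusted p = 1.27e-04). Neither gene had a luminal library that reached its lowest basal library.

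Of the 7 ADAMTS genes outside these roles, 3 were tested, and all 3 were lower in luminal cells in both genotypes. Adamts18, a secreted enzyme with few known substrates (chromosome 8 from 113697126 to 113848738, minus strand), had the lowest log2 fold change of the members in both genotypes. It stood at 222, 371 and 416 CPM in WT basal libraries, while the WT luminal libraries held 0, 8 and 19 counts (0, 0.568 and 1.21 CPM). MMTVRANK cells had 319.8, 406 and 490.2 CPM (basal) and 1.7, 1.47 and 3.87 CPM (luminal), and the log2 fold changes were −9.08 (SE 0.72, adjusted p = 5.89e-06) and −7.42 (SE 0.65, adjusted p = 9.96e-06). Adamts17, an enzyme linked to fibrillin microfibrils, stood at 60.5, 131 and 82.2 CPM in WT basal and 3.37, 3.9 and 5.78 CPM in WT luminal libraries. MMTVRANK libraries held 111, 130.2 and 188 CPM (basal) and 2.65, 4.48 and 4.63 CPM (luminal). All basal libraries lay above all luminal ones, at −4.38 (SE 0.36, adjusted p = 3.57e-06) in WT and −5.18 (SE 0.38, adjusted p = 1.32e-06) in MMTVRANK. Adamts10, a binding partner of fibrillin, was 42.4, 25.4 and 51.7 CPM in WT basal and 3.74, 12.8 and 12.2 CPM in WT luminal libraries. In the MMTVRANK libraries it reached 31.5, 31.9 and 19.9 CPM (basal) and 4.29, 7.16 and 6.8 CPM (luminal), again without overlap, with log2 fold changes of −2.05 (SE 0.43, adjusted p = 0.00257) and −2.19 (SE 0.44, adjusted p = 0.00205).

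Mmp2, a gelatinase that cleaves denatured collagen and type IV collagen (chromosome 8 from 92827291 to 92853420, plus strand), had the lowest log2 fold change between populations of the MMPs in both genotypes. It stood at 456, 363 and 549.8 CPM in WT basal and 0.973, 0.993 and 5.15 CPM in WT luminal libraries. In MMTVRANK the values were 529, 577 and 802 CPM (basal) and 3.2, 0.959 and 10.3 CPM (luminal). In both genotypes luminal replicate 3 was the highest luminal library, still far under the basal ones, and the log2 fold changes were −7.56 (SE 0.91, adjusted p = 8.76e-05) and −7.04 (SE 0.87, adjusted p = 1.18e-04). The other gelatinase, Mmp9, was not tested, with at most 79 counts (4.63 CPM), in MMTVRANK luminal replicate 3.

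Of 4 collagenases and 5 stromelysins and their relatives (matrilysin and metalloelastase), 1 of each group had enough counts. Mmp8, the neutrophil collagenase, had 31, 14 and 1 counts in WT basal replicates 1, 2 and 3 and none in the WT luminal libraries, which makes it at least 17.2-fold higher in WT basal cells against a floor of 3 counts over the group. It passed in WT (adjusted p = 0.0434), but in MMTVRANK it had 0, 0 and 2 counts in basal and 0, 0 and 14 counts in luminal libraries and did not pass. The WT call of Mmp8 was lost without WT basal 1 or 2, WT luminal 1, 2 or 3 or MMTVRANK basal 1, 2 or 3 (values −7.12 to −5.97, adjusted p 0.0567 to 0.108). Here and elsewhere, the fits named with a call need not be all of those that lost it. The sum of 10 neutrophil markers was 0.0773, 1.37 and 0.77 CPM in WT basal libraries and 0.476, 1.28 and 18.3 CPM in MMTVRANK luminal ones. In WT basal cells S100a8, Ly6g, Csf3r, Elane and Retnlg were at 0 in all libraries. Camp, Cxcr2 and S100a9 were at 0 in 2 of them, and Ngp and Mpo in 1. The part of neutrophil RNA in the Mmp8 counts was not tested. Mmp11, stromelysin 3, stood at 6.96, 1.87 and 3.77 CPM in WT basal and 0.898, 1.42 and 1.14 CPM in WT luminal libraries, without overlap, and passed in WT at −1.85 (SE 0.62, adjusted p = 0.0326). With the replicate block its WT value was −1.7 (adjusted p = 0.0556). Without the low-count filter Mmp11 did not pass in WT either. The WT call was also lost without WT basal 1 or 3, WT luminal 1, 2 or 3 or MMTVRANK basal 3 (values −2.02 to −1.27, adjusted p 0.0503 to 0.145). In MMTVRANK it was 2.72, 1.35 and 1.72 CPM (basal) and 1.5, 1.6 and 2.99 CPM (luminal), overlapping, at 0.07 (SE 0.60, adjusted p = 0.945).

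The 6 membrane-type MMPs (MT-MMPs), which act at the cell surface, were all tested and did not share a direction. Mmp14 (MT1-MMP), the main activator of Mmp2, differed little between populations. It stood at 288, 259.6 and 315 CPM in WT basal and 382, 418 and 277 CPM in WT luminal libraries. The MMTVRANK libraries held 293, 352 and 310.1 CPM (basal) and 311, 283 and 225 CPM (luminal). The groups overlapped in both genotypes, and the log2 fold changes were 0.32 (SE 0.18, adjusted p = 0.190) and −0.22 (SE 0.18, adjusted p = 0.380). Mmp15 (MT2-MMP; chromosome 8 from 95352268 to 95375080, plus strand) was high in luminal cells, at 43.3, 33.1 and 17.7 CPM in WT basal and 369, 341 and 385 CPM in WT luminal libraries. MMTVRANK libraries held 33.1, 24 and 44 CPM (basal) and 304, 315 and 527 CPM (luminal). No basal library came near a luminal one, and Mmp15 passed as higher in luminal cells at 3.54 (SE 0.35, adjusted p = 1.33e-05) in WT and 3.5 (SE 0.35, adjusted p = 1.35e-05) in MMTVRANK.

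Mmp17 (MT4-MMP), which is held by a lipid (GPI) anchor, went the other way. Its values were 10.7, 6.05 and 7.79 CPM in WT basal and 0.973, 1.77 and 1.33 CPM in WT luminal libraries. In MMTVRANK they were 15.4, 17.2 and 15 CPM (basal) and 1.09, 0.448 and 1.46 CPM (luminal), so that no luminal library reached a basal one, and the log2 fold changes were −2.58 (SE 0.45, adjusted p = 7.53e-04) and −3.97 (SE 0.48, adjusted p = 4.81e-05). Mmp16 (MT3-MMP) was uneven within the luminal groups, at 7.26, 16.8 and 2.16 CPM in WT and 4.49, 21.2 and 0.996 CPM in MMTVRANK luminal libraries. Its basal values were 2.55, 1.15 and 0.856 CPM (WT) and 1.21, 0.337 and 1.49 CPM (MMTVRANK), and the 2 populations overlapped in both genotypes. It passed as higher in luminal cells in MMTVRANK at 3.12 (SE 1.07, adjusted p = 0.0425) and not in WT at 2.51 (SE 1.04, adjusted p = 0.0769). With the replicate block the MMTVRANK value was 2.2 (adjusted p = 0.138). The MMTVRANK call was also lost without WT basal 2 or 3, WT luminal 1, MMTVRANK basal 1, 2 or 3 or MMTVRANK luminal 2 (values 1.43 to 3.5, adjusted p 0.0523 to 0.309), the lowest value being the one without MMTVRANK luminal replicate 2, its highest library. In WT, Mmp16 also passed with DESeq2 (adjusted p = 0.0243) and without WT luminal replicate 3, MMTVRANK luminal replicate 2 or MMTVRANK luminal replicate 3 (adjusted p 0.0320 to 0.0454). Mmp24 (MT5-MMP) and Mmp25 (MT6-MMP, the leukocyte-type enzyme) stayed under 2 CPM in every library and passed in no comparison.

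Of the 6 other MMPs, Mmp19, Mmp21 and Mmp23 were tested. Mmp19, which is known from basement membrane cleavage, stood at 5.8, 1.01 and 0.941 CPM in WT basal and 0.524, 0.213 and 0.127 CPM in WT luminal libraries and passed in WT at −3.14 (SE 1.00, adjusted p = 0.0258). Replicate 1 was the highest WT basal library, and the call was lost without WT basal 1 or WT luminal 2 or 3 (values −2.96 to −1.73, adjusted p 0.0826 to 0.170). In MMTVRANK Mmp19 was 0.832, 2.95 and 1.18 CPM (basal) and 0.681, 0.639 and 1.87 CPM (luminal), at −0.62 (SE 0.90, adjusted p = 0.642). Mmp23, a short MMP with an unusual anchor near its start, stood at 8.04, 3.24 and 1.97 CPM in WT basal and 0.225, 0.497 and 0.953 CPM in WT luminal libraries, without overlap, at −2.95 (SE 1.07, adjusted p = 0.0462). Its WT call was lost without WT basal 1 or 2, WT luminal 1, 2 or 3, MMTVRANK basal 1, 2 or 3 or MMTVRANK luminal 2 (values −3.56 to −2.18, adjusted p 0.0524 to 0.152). In MMTVRANK Mmp23 was 4.16, 2.53 and 3.84 CPM (basal) and 0.272, 2.62 and 13 CPM (luminal), at 0.60 (SE 0.97, adjusted p = 0.682), and the value turned to −1.27 (adjusted p = 0.365) without MMTVRANK luminal replicate 3. Mmp8, Mmp11, Mmp19 and Mmp23 were each highest among the WT basal libraries in replicate 1, the library with the fibroblast sum of 3419 CPM. Of all 31 tested members, 13 were highest in WT basal replicate 1, 6 in replicate 2 and 12 in replicate 3. These shares were not computed over all genes. Replicate 3 had the lowest fibroblast sum of the WT basal libraries. The part of fibroblast RNA in these values was not tested. Mmp19 shares 22.3% of its exon length with Tmem198b on the opposite strand. Mmp21 stayed under 2 CPM and passed in no comparison.

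Among the inhibitors, Timp3 and Timp2 were lower in luminal cells and Timp1 and Timp4 did not pass. Timp3 (chromosome 10 from 86300372 to 86349506, plus strand) stood at 332, 342 and 550.5 CPM in WT basal and 3.52, 12.1 and 13.6 CPM in WT luminal libraries. MMTVRANK cells had 253, 637 and 663 CPM (basal) and 7.15, 11.4 and 34.4 CPM (luminal). Its populations lay far apart, at −5.39 (SE 0.73, adjusted p = 2.02e-04) in WT and −4.87 (SE 0.71, adjusted p = 3.56e-04) in MMTVRANK, and 21.3% of its exon length is shared with Syn3 on the opposite strand. Timp2, which with Mmp14 forms the complex that activates Mmp2, had log2 fold changes nearer to 0. Its values were 410.2, 339 and 279 CPM in WT basal and 217, 196 and 138 CPM in WT luminal libraries. In MMTVRANK they were 346, 298 and 358 CPM (basal) and 164, 159.9 and 152 CPM (luminal). Even so no luminal library reached a basal one, and the log2 fold changes were −0.90 (SE 0.19, adjusted p = 0.00250) and −1.07 (SE 0.19, adjusted p = 8.58e-04). Timp1, the inducible inhibitor, was set by a single library in WT basal cells, at 4.56, 4.25 and 41.1 CPM, against 9.58, 14.7 and 10.4 CPM in WT luminal libraries. Its WT value of −0.52 (SE 0.79, adjusted p = 0.646) turned to 1.4 (adjusted p = 0.0657) without WT basal replicate 3. In the MMTVRANK libraries it reached 3.4, 13.2 and 13.8 CPM (basal) and 6.26, 9.01 and 10.3 CPM (luminal), overlapping. Timp4 ranged from 1.11 to 11.8 CPM over all libraries and did not pass in either genotype.

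**Figure D2:**
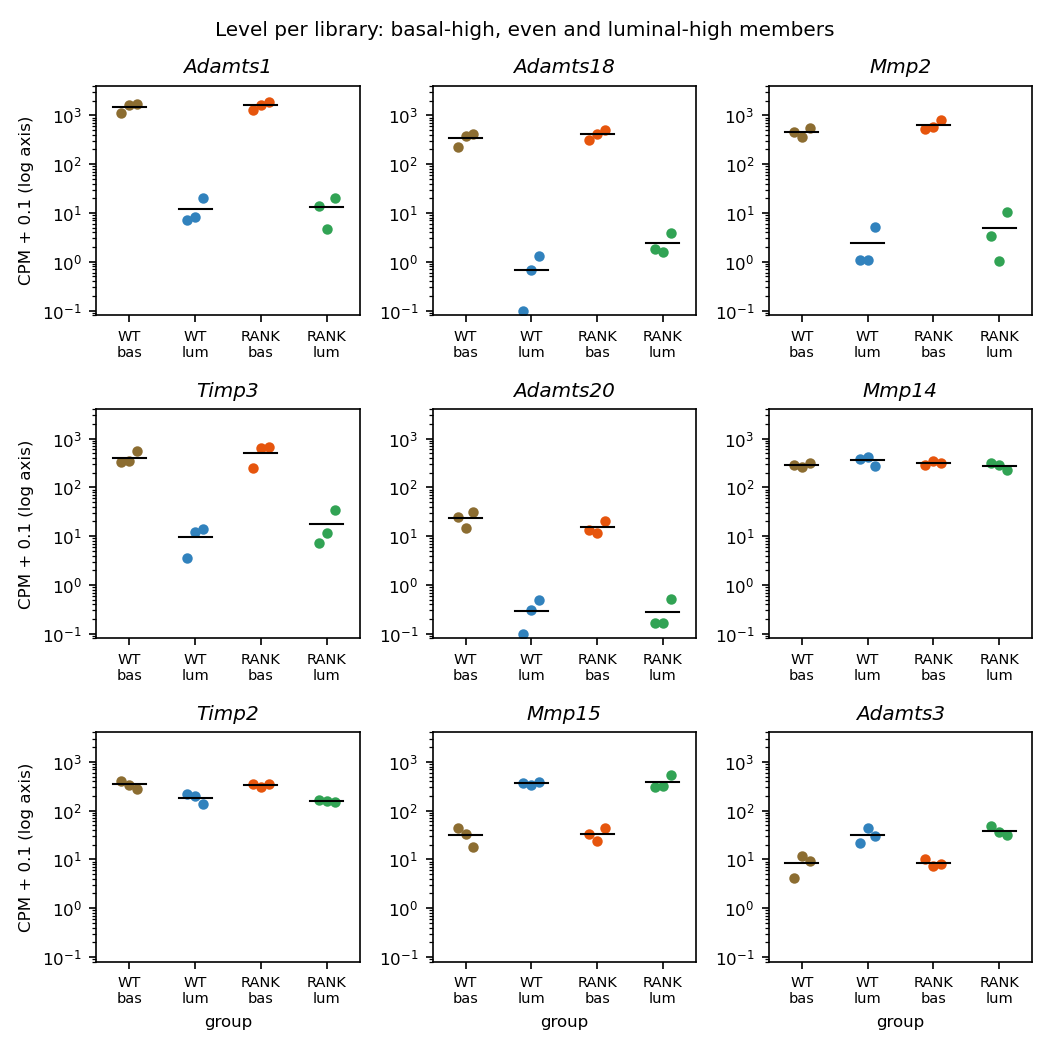
CPM + 0.1 on a log axis for 9 members in each library (points) with the group mean (bars), basal before luminal and WT before MMTVRANK from left to right. Adamts1, Adamts18, Mmp2, Timp3 and Adamts20 are lower in luminal libraries, Timp2 slightly so, Mmp14 overlaps between populations, and Mmp15 and Adamts3 are higher in luminal libraries.

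Levels of different genes were compared as CPM per kilobase of exon, summed over each family. The ADAMTS sum was 430.0 ± 76 (SD, n = 3) in WT basal and 17.7 ± 4.61 in WT luminal libraries. For the MMPs the sums were much closer, 199 ± 31.3 and 131 ± 8.32, and for the TIMPs 158 ± 26.1 and 62.8 ± 10.5. MMTVRANK sums were 456 ± 83 (basal) and 20.3 ± 6.18 (luminal) for ADAMTS, 255 ± 44.6 and 124 ± 21.6 for MMPs, and 161 ± 33.5 and 53.3 ± 1.88 for TIMPs. A few genes made up each sum. Per kilobase, Adamts1 made up 61 to 69.5% of the ADAMTS sum in WT basal libraries, followed by Adamts4, Adamts18 and Adamts9, whose ranges overlap. In WT luminal libraries Adamts3 led by its mean level with 25.6 to 43.8%. Adamts9 had 7.14 to 33% and was first in WT luminal replicate 1, and Adamts8 was first in MMTVRANK luminal replicate 3.

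The leading MMP changed between populations. Mmp2 made up 64.9 to 72.4% of the MMP sum per kilobase in WT basal and 71.1 to 78.1% in MMTVRANK basal libraries, and Mmp14 was second with 23.2 to 26.5% and 17.1 to 24.6%. In luminal libraries Mmp15 and Mmp14 together made up nearly the whole sum, Mmp15 with 46 to 58.6% in WT and 50.5 to 65.7% in MMTVRANK and Mmp14 with 38.1 to 51% and 25.4 to 46.7%. Per kilobase their levels in WT luminal cells were 67.6 ± 4.12 and 60.2 ± 12.3 CPM (SD, n = 3), which do not differ beyond their spread. In WT luminal libraries Mmp2 made up 0.214 to 1.25% of the sum. Of the inhibitors, Timp2 led in each group by its mean level per kilobase, with 38.4 to 68.8% of the TIMP sum in WT basal and 69.6 to 82.1% in WT luminal libraries. Timp3 was second in basal cells with 26.6 to 36.2% in WT and 25 to 45.9% in MMTVRANK, and in luminal cells Timp1 was second with 15.9 to 23.6% in WT.

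The population difference was alike in direction in the 2 genotypes for the members that passed in both. These were 17 genes, 15 lower and 2 higher in luminal cells, which is 77.3% of the 22 that passed in WT and 89.5% of the 19 that passed in MMTVRANK. Such an overlap was not computed over all genes, so it cannot be called particular to the members. The 17 are also the members whose calls held in every alternative fit that was run, in both genotypes. Mmp8, Mmp11, Mmp19, Mmp23 and Adamts14 passed in WT alone, and Mmp16 and Adamts15 in MMTVRANK alone. Each of these 7 calls was lost in some alternative fit. Over all alternative fits they were lost 37 times in WT and 17 times in MMTVRANK, more often than named above. Most of the calls in WT alone were not kept without both WT replicate 2 libraries. None of the 7 passed the test of the difference between genotypes (adjusted p 0.533 to 0.968). Across the 31 tested members, the log2 fold changes in WT and MMTVRANK had a Pearson r of 0.768 and a Spearman rho of 0.731, as a description, since members are not independent replicates and both come from 1 fit. The 2 comparisons share no library. Neither correlation was computed over all genes.

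**Figure D3:**
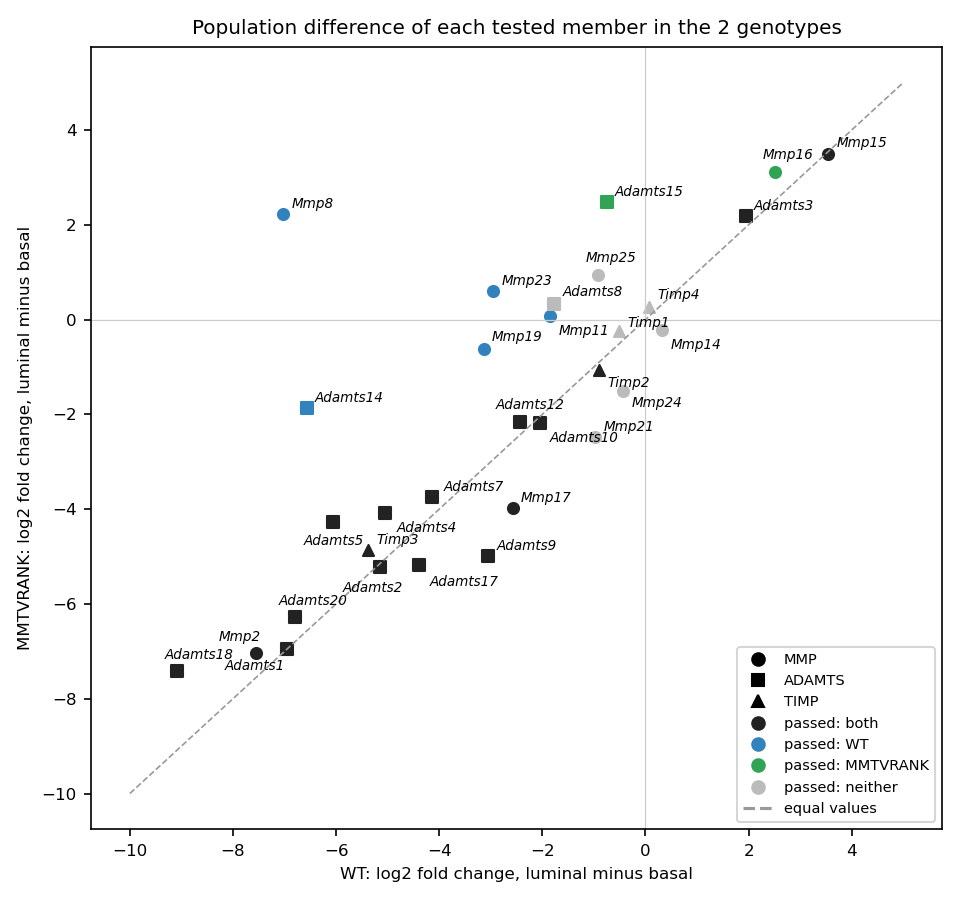
Log2 fold change, luminal minus basal, of each tested member in WT (horizontal) and MMTVRANK (vertical), shaped by family and coloured by where it passed. The 17 genes that passed in both lie around the dashed line of equal values, and Mmp8, with no WT luminal count, and Adamts14 lie far from it.

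Between genotypes, 0 of the 31 members passed in luminal cells (edgeR), where 46 of 18236 genes (0.252%) passed, 0.0932% higher and 0.159% lower in MMTVRANK. At an unadjusted p under 0.05 there were 5 members, against 12% of all genes, while DESeq2 called 3 (4.39% of all genes) and limma-voom 0 (0.208%). Fitting all genes without the low-count filter gave 8 (3.58% of all genes), with Mmp23, Mmp2, Adamts18, Adamts8, Adamts7, Adamts14 and Timp3 higher and Adamts9 lower in MMTVRANK. The adjusted p-values of that fit could be far smaller at like fold changes, so its calls are not on the footing of the main fit. For Adamts18 between WT populations it gave −9.04 with an adjusted p of 1.32e-159 (edgeR), against −9.08 and 5.89e-06 in the main fit. The replicate block gave 0 (0.565%). The 5 with an unadjusted p under 0.05 were Mmp23, Adamts18, Adamts14, Adamts9 and Mmp14. For Mmp23 the log2 fold change, MMTVRANK minus WT, was 3.22 (SE 1.08, adjusted p = 0.226), from 0.225, 0.497 and 0.953 CPM in WT and 0.272, 2.62 and 13 CPM in MMTVRANK luminal libraries. Adamts18, with the per-library values above, had 1.93 (SE 0.68, adjusted p = 0.261), and its 3 MMTVRANK luminal libraries lay above the 3 WT ones. All 10 basal markers also had positive values in this comparison, with a median of 1.14, and none passed. What basal cells' RNA adds to the Adamts18 value was not tested. Adamts9 pointed down at −1.27 (SE 0.43, adjusted p = 0.236), with WT replicate 2 inside the MMTVRANK range. Mmp23, Adamts18 and Adamts9 are the 3 members that DESeq2 called, with adjusted p = 0.0337, 0.0261 and 0.0404. Mmp14 had −0.39 (SE 0.18, adjusted p = 0.414) and Adamts14 had 43 counts in MMTVRANK against 2 in WT luminal libraries, a ratio of 19.6 (95% counting interval 5.10 to 167), with 38 of the 43 in replicate 3. In 4 members (Adamts18, Adamts5, Mmp11 and Mmp19) all MMTVRANK luminal libraries lay above all WT ones and in 1 (Mmp21) all lay below, against 10.1% and 6.82% of all genes. Without both WT replicate 2 libraries Adamts9 stood at −1.62 (adjusted p = 0.0550). The median log2 fold change was 0.12 over the members and 0.03 over all genes.

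MMTVRANK luminal replicate 3 was the highest library of its group for 22 of the 31 members. The share of all genes that were highest in it was not computed, so this count is not particular to the members. The macrophage markers of this library (10 genes) summed to 291.5 CPM, where the other 5 luminal libraries held 4.36 to 34.6 CPM. Its basal markers reached 391 CPM, where the others held 36.9 to 112.5 CPM. Its neutrophil and lymphocyte markers summed to 18.3 and 34.2 CPM, each above the other luminal libraries. For the luminal genotype comparison, leaving it out turned Mmp2 from 1.0 to −0.26 (adjusted p = 1), Timp3 from 0.86 to −0.10 (adjusted p = 1), Adamts1 from 0.12 to −0.42 (adjusted p = 1) and Mmp15 from 0.07 to −0.28 (adjusted p = 1). No member passed with it or without it. The part of other cells' RNA in these values was not tested.

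Among basal cells 0 of the 31 members passed between genotypes (edgeR; 0.00548% of all genes passed), 3 had an unadjusted p under 0.05 (5.41% of all genes), and DESeq2 (0.362%) and limma-voom called 0. The fit without the low-count filter, which takes in members outside the 31, gave 3 (0.924%), all lower in MMTVRANK: Adamts4, Adamts15 and Mmp3, which is not among the 31. The 3 with the unadjusted p under 0.05 were Mmp17, Adamts15 and Adamts5. For Mmp17 the log2 value was 0.96 (SE 0.42, adjusted p = 0.898), with all MMTVRANK basal libraries above all WT ones. Adamts15 stood at −2.0 (SE 0.80, adjusted p = 0.864) and Adamts5 at −0.86 (SE 0.37, adjusted p = 0.897), both overlapping between genotypes. For both, as for 13 of the 31 members, the highest WT basal library was replicate 1, with 14.4 CPM of Adamts15 and 39 CPM of Adamts5. This is the library with the high fibroblast sum. MMTVRANK basal replicate 3 was the highest of its group for 16 of the 31 members, a count that was not made over all genes. Its macrophage sum of 154 CPM lay above the 11.7 to 37.1 CPM of the remaining basal libraries. Without it 0 members passed in this comparison, and between populations 19 passed in WT (33.2% of all genes) and 17 in MMTVRANK (25.2%). The part of fibroblast or macrophage RNA was not tested. Adamts7 was also higher in every MMTVRANK than in every WT basal library, and Timp4 lower, against 6.60% and 4.52% of all genes with such a split. Their log2 fold changes were 0.50 (SE 0.40, adjusted p = 1) and −1.14 (SE 0.57, adjusted p = 0.914). Of the members that led the family sums, Adamts1 had 0.11 (SE 0.48, adjusted p = 1), Mmp2 0.48 (SE 0.66, adjusted p = 1), Mmp14 0.15 (SE 0.18, adjusted p = 1) and Timp2 −0.04 (SE 0.19, adjusted p = 1). The standard errors of the members ranged from 0.18 to 1.97 in this comparison, and were widest for the sparse genes. The median over members was −0.33, against 0.0041 over all genes.

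The genotype effect differed between luminal and basal cells for 0 of the 31 members (edgeR; 0.00548% of all genes), with 8 at an unadjusted p under 0.05 (7.73% of all genes) and 0 by DESeq2 (0.768%) or limma-voom. Without the low-count filter it was 7 (2.05%). Adamts9 had the lowest p of them (unadjusted 0.00753), with a difference of effects of −1.94 (SE 0.60, adjusted p = 0.490) on the log2 scale. Its luminal effect was −1.27 and its basal effect 0.67. Adamts5 had the opposite pattern, with 0.93 in luminal and −0.86 in basal cells and a difference of 1.79 (SE 0.59, adjusted p = 0.525). The other 6 were Mmp8, Mmp11, Mmp17, Mmp23, Adamts14 and Adamts15, with adjusted p between 0.533 and 0.641.

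**Figure D4:**
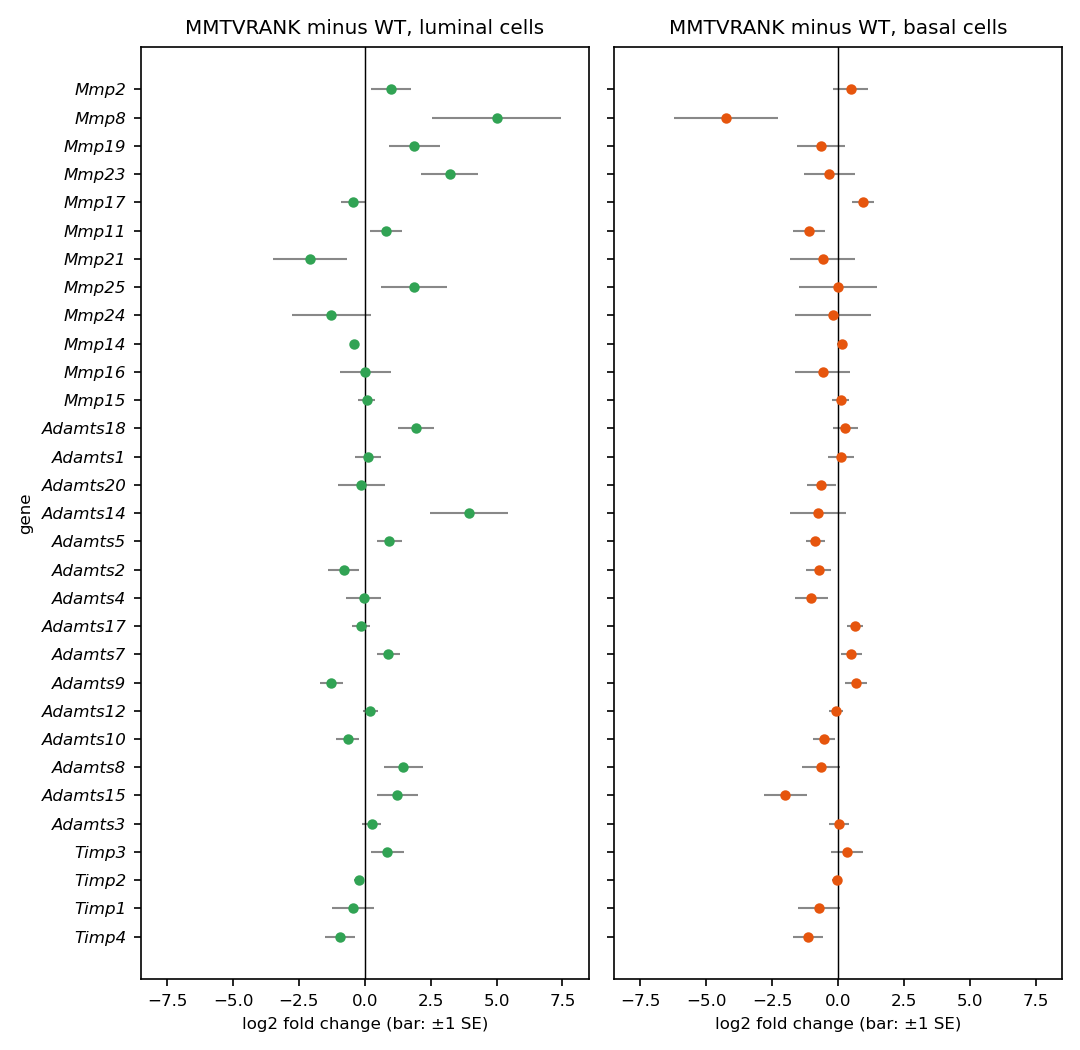
Log2 fold change, MMTVRANK minus WT, with 1 SE either side for each of the 31 tested members in luminal (left) and basal (right) cells. No member passed in either panel, and the bars are widest for sparse genes such as Mmp8.

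The 15 members that were not tested did not reach the count minimum in enough libraries. Mmp3 (stromelysin 1) had at most 141 counts (10.9 CPM), in WT basal replicate 1, the library with the high fibroblast sum, and 35 and 8 in replicates 2 and 3. Mmp9 (79 counts), Adamts13, the enzyme that trims von Willebrand factor (62 counts), Mmp12, the macrophage elastase (24 counts), and Mmp7, matrilysin (6 counts), peaked in MMTVRANK luminal replicate 3, the library with the high macrophage sum. Mmp28 (epilysin) peaked at 58 counts in WT basal replicate 2. Mmp13 and Mmp1a peaked in WT basal replicate 3 with 14 and 11 counts. Adamts6, Adamts19 and Adamts16 reached 17, 9 and 6 counts, Mmp27, Mmp20 and Mmp10 reached 3, 2 and 1, and Mmp1b had none. On chromosome 9, 10 of the 23 Mmp genes lie between 7272514 and 7699585 (427 kb), and Mmp8 was the only one of them with enough counts to be tested.

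Other genes of matrix turnover, in lists of partners of the members, were read from the same fit. Of 26 tested matrix substrates, 23 were lower and 1 higher in WT luminal than in WT basal cells, and 18 and 2 in MMTVRANK, with medians of −5.36 and −3.97. Over all genes tested, 20% were lower and 18% higher in WT luminal cells and 17% and 16.1% in MMTVRANK luminal cells. The lower ones with the smallest p were Vcan (versican, cleaved by several ADAMTS enzymes) at −8.56 (SE 0.63, adjusted p = 2.94e-06), Col7a1 (anchoring fibrils) at −7.94 (SE 0.63, adjusted p = 5.27e-06), and Col4a1 and Col4a2 (type IV collagen of the basement membrane) at −7.41 (SE 0.68, adjusted p = 1.27e-05) and −8.04 (SE 0.73, adjusted p = 1.33e-05). Vwf, the substrate of Adamts13 and an endothelial marker, was the only one higher in luminal cells in WT, at 3.84 (SE 0.38, adjusted p = 1.38e-05). The substrate list shares genes with the marker lists, the fibroblast marker Lum among them. Of the 12 fibroblast markers 11 were lower in WT luminal cells, and what fibroblast RNA adds to the substrate values was not tested. Of 6 ADAMTS-like proteins, which lack a protease domain, 4 were lower and none higher in both genotypes, with Adamtsl3 at −6.48 (SE 0.91, adjusted p = 1.66e-04) in WT. Of 16 other inhibitors, receptors and binding partners, 12 were lower and 2 higher in WT luminal cells (11 and 2 in MMTVRANK). Among them Spock2, a matrix proteoglycan, had −6.77 (SE 0.40, adjusted p = 4.91e-07), Lrp1, an endocytic receptor that clears proteases, −3.44 (SE 0.33, adjusted p = 9.09e-06), Reck, a membrane-anchored inhibitor of MMPs, −3.31 (SE 0.33, adjusted p = 1.32e-05), and Bsg, an inducer of MMPs, 1.42 (SE 0.20, adjusted p = 1.48e-04).

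Of 11 tested activators and convertases, 6 were lower and 2 higher in WT luminal cells (7 and 1 in MMTVRANK). St14 (matriptase), a serine protease of epithelial surfaces, was higher at 2.4 (SE 0.16, adjusted p = 8.03e-07), and Pcsk5, a proprotein convertase, Plau (urokinase) and Htra1 were lower at −5.83 (SE 0.56, adjusted p = 1.57e-05), −4.87 (SE 0.51, adjusted p = 2.70e-05) and −6.68 (SE 0.81, adjusted p = 9.71e-05). Of 9 ADAM sheddases, the membrane-bound relatives of ADAMTS, 3 were lower and 2 higher in WT, and 0 lower and 1 higher in MMTVRANK. These are 5 of 9 and 1 of 9 genes, where 38.1% and 33.2% of all genes passed, so in MMTVRANK the list lay below the share of all genes. Adam10 was among the higher ones at 2.22 (SE 0.27, adjusted p = 4.79e-05), and Adam12, Adam19 and Adam28 were lower at −6.45 (SE 1.20, adjusted p = 0.00144), −5.1 (SE 1.55, adjusted p = 0.0237) and −3.8 (SE 0.90, adjusted p = 0.00533). Between genotypes, 1 gene of these 5 lists passed: Papln (papilin, an ADAMTS-like matrix protein) was lower in MMTVRANK luminal cells at −1.98 (SE 0.35, adjusted p = 0.0457). Over all genes, 0.252% passed between genotypes in luminal and 0.00548% in basal cells. Papln was not followed through the alternative fits. Adam28 in luminal cells had 4.35 (SE 0.91, adjusted p = 0.0732) and Furin, the convertase that activates several of the membrane MMPs, −0.85 (SE 0.17, adjusted p = 0.0720), and neither passed.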

How the data were processed

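Gene counts of 12 libraries of sorted mouse mammary epithelial cells were used. Per the file headers, the deposited table holds raw counts from featureCounts 1.5.2 (largest overlap, GENCODE M17), as deposited by the authors, with no strand option. Per the submitters' processing notes, reads were aligned with STAR 2.6.1b to GRCm38.p6 and Subread 1.5 was used. Per the labels' protocols the kit was the SMARTer stranded total RNA kit for low input, but the counting did not use the strand of reads. Reads in exon sequence shared by genes on opposite strands were thus not assigned by strand. Whether they were counted for either gene was not tested. The deposited exon length (unit: bases) was used for CPM per kilobase.

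Groups followed the titles. Genes were kept by filterByExpr of edgeR 4.0.16 (by group, count minimum 10), scaled by TMM and fitted in 1 robust quasi-likelihood model of all 12 libraries and 4 groups (R 4.3.3). Adjusted p-values are Benjamini-Hochberg values over 18236 genes, and a gene passed below 0.05. A standard error (SE) was taken as the fold change on the log2 scale divided by √F. The common biological coefficient of variation was 0.45. The 5 contrasts were luminal minus basal in each genotype, MMTVRANK minus WT in each population, and the difference of the genotype effects. The scripts were tested on simulated data. Alternatives were DESeq2 1.42.0 and limma-voom (limma 3.58.1), other scaling and filters, the groups compared alone, the replicate block and left-out libraries. Counting intervals (95%) and the floor of 3 counts over a group cover counting error only.

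The members and all lists were chosen with earlier results of these data known. Values per library are given for members that passed in any contrast or reached a group mean of 10 CPM. Other tested members are given by ranges, and untested ones by their highest count. Of each other list, up to 4 genes with the smallest p were eligible to be named, and Vwf and the markers at 0 were picked after their values were seen.

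Replicate numbers are shared between groups, and the labels do not say what they mark. Same-numbered libraries correlated in their deviations from group means (numbers 1, 2 and 3, over 10082 genes) at 0.277, 0.168 and 0.343 between populations in WT, 0.278, 0.144 and 0.199 in MMTVRANK, and 0.525, 0.125 and 0.392 between luminal genotypes. All of these values were positive. Between basal genotypes the values were 0.404, −0.0706 and 0.0915. What the shared numbers mark cannot be told from these correlations. The main fit has no block by replicate number, which was used in an alternative fit.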

Additional observations from a re-analysis of the deposited data

How the results depend on the processing

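Over the 20 alternatives, the number of members that passed stayed between 18 and 24 in WT luminal against basal and between 17 and 19 in MMTVRANK. The share of all genes that passed ran from 18.5% to 47.3% in WT and from 16.1% to 44.1% in MMTVRANK. Leaving out 1 library at a time gave the same ranges of members, against 29.5% to 35.8% of all genes in WT and 23.6% to 32.8% in MMTVRANK. Between genotypes, leaving out 1 library gave 0 in luminal cells, 0 in basal cells and 0 for the difference. Of all genes at most 0.485%, 0.0416% and 0.0358% passed in these fits. With no low-count filter, 8 members passed in luminal cells (7 higher in MMTVRANK, 1 lower), where 3.58% of all genes passed. In basal cells 3 passed (all lower, Mmp3 among them, which the filter removes), against 0.924% of all genes. For the difference it was 7 (6 up, 1 down), against 2.05%. Adjusted p-values of this unfiltered fit could be far smaller than those of the main fit, as given above for Adamts18. DESeq2 gave 3 in luminal cells (2 higher, 1 lower), against 4.39%. The cause was not tested. No call changed direction. With the replicate block, the call of Mmp11 in WT and that of Mmp16 in MMTVRANK were lost and that of Adamts8 in WT was gained, and no other member's call changed. For members that did not pass in a comparison, the sign changed in 13 of 175 and 14 of 230 refits for the WT and MMTVRANK population comparisons and in 27 of 605, 42 of 612 and 44 of 582 for luminal genotype, basal genotype and their difference. DESeq2 size factors in edgeR gave 15 higher and 41 lower of 56 genes between luminal genotypes, against 17 and 29 of 46 with TMM, with no member among them. Depth limits the 15 untested members and the fold changes of Mmp8 and Adamts14.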
